A study of Mus musculus with 12 samples.

Results

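The 10 genes described here (Dcx, Tubb3, Stmn1, Stmn2, Dpysl3, Gap43, Ncam1, Elavl4, Crmp1 and Map1b) are commonly used as markers of immature neurons. They were chosen by name, and each was found as 1 of the 24421 gene rows of the deposited tables. They were followed through 12 mouse polyA RNA sequencing libraries in 4 groups of 3. The groups were wild-type non-tumour cortex, ependymomas of the genotype ZFTA-RELA (control tumours), and ZFTA-RELA ependymomas that also overexpressed human ETV5 or human NPY (ETV5 tumours and NPY tumours). All 9 tumours thus carried ZFTA-RELA, a fusion protein that drives a supratentorial ependymoma, and cortex differed from them in tissue as well as in genotype. The labels call the added genes human variant ETV5 and NPY. They give neither the age of the mice, the promoter that drives each gene, the way the tumours were raised, nor whether the replicates of a group came from different animals. The p-values below therefore refer to the spread among libraries, which may be technical.

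A newborn neuron leaves the cell cycle, migrates and extends neurites, and all of these steps rest on a cytoskeleton that is rebuilt at the growth cone. Proteins that bundle microtubules (Dcx, Map1b), a neuronal tubulin (Tubb3), stathmins that bind free tubulin (Stmn1, Stmn2) and collapsin response mediator proteins that link guidance receptors to the cytoskeleton (Crmp1, Dpysl3) are made at this stage together with growth cone and adhesion proteins (Gap43, Ncam1) and an RNA-binding protein of neuronal transcripts (Elavl4). Several of them persist in mature neurons, and Stmn1 is also made by many dividing cells and Ncam1 by glia, so none of the 10 marks an immature neuron by itself.

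RefSeq start regions (build GRCm38.p6) were matched by symbol for 5 of the 10 genes. Dcx and Crmp1 had 2 entries each and Elavl4 had 4. The 1 start shown and described per gene need not stand for the others. They are shown so that the starts of genes that fell by different amounts in the tumours, from Map1b to Crmp1, can be compared in base content and in short motifs. The 250 bases before each start were searched on both strands, and the stretch outside the GENCODE gene model is printed 5′ to 3′ on the gene's own strand, with motif matches in capitals.
Dcx, chrX:143933312-143933469, minus strand: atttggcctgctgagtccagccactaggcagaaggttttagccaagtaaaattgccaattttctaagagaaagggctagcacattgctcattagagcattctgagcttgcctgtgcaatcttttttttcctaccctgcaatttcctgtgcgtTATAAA
Map1b, chr13:99516603-99516852, minus strand: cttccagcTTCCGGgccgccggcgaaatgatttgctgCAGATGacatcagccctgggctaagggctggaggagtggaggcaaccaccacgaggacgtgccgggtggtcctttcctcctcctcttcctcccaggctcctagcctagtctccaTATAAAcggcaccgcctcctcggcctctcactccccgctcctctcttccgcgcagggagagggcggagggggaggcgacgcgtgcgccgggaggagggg
Tubb3, chr8:123411303-123411423, plus strand: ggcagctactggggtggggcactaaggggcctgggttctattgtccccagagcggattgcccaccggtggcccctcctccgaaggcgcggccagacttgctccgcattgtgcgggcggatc
Crmp1, chr5:37241808-37241939, plus strand: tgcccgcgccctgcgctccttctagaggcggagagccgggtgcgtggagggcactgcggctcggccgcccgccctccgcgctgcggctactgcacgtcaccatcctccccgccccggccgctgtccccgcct
Elavl4, chr4:110351912-110352161, minus strand: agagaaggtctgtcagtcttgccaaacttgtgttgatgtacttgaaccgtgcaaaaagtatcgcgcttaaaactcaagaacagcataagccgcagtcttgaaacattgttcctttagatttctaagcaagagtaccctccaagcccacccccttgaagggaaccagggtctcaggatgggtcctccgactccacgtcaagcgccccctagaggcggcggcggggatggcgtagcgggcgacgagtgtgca
Over the 250 bases, G and C made up 41.6% at Dcx, 53.6% at Elavl4, 66.4% at Map1b, 68.0% at Tubb3 and 75.6% at Crmp1, against a median of 52.4% over 32851 start regions. TATA box letters, TATAAA, began 98 bases before the start of Dcx and 99 before that of Map1b, and 12.4% of all start regions hold them in either orientation. The Map1b region also held CAGATG, one form of the site of proneural factors (14.4% of all regions), and TTCCGG, the reverse of the ETS core CCGGAA (12%). The Crmp1 region held CTTTGT, the reverse of the SOX core ACAAAG (16.5%), in its part that is not printed. The proneural site CAGCTG, and the sites of NF-kB and of the repressor REST were searched too, the last in part, and were not among these letters. No searched motif was held by all 5 regions, and each match is a description of letters only.

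Sequencing depth was 5962376 to 11291057 reads per library, as recovered from the deposited values. Levels are given as CPM, the reads of a gene relative to all recovered reads of that library. Mouse Etv5 stood at 401 to 474 CPM in ETV5 tumours and 264 to 322 in control tumours, and mouse Npy at 2.19 to 15.9 CPM in NPY tumours and 21.5 to 46.1 in control tumours. Reads at mouse genes do not measure the human genes that were added, so these values do not check the labels. The library codes in the labels begin with DS for all cortex and control libraries and for ETV5 replicates 1 and 2, and with EC for ETV5 replicate 3 and all NPY libraries. This difference in code and the NPY group cannot be told apart.

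The positions of the genes are those of the GENCODE M21 annotation of mm10, and all 10 are protein coding. Dcx lies on chromosome X (143855842 to 143933311, minus strand), Map1b on chromosome 13 (99421446 to 99516540, minus) and Tubb3 on chromosome 8 (123411424 to 123422015, plus). Stmn1 lies on chromosome 4 (134468320 to 134473843, plus), Stmn2 on chromosome 3 (8509360 to 8561606, plus), Crmp1 on chromosome 5 (37241940 to 37292133, plus) and Dpysl3 on chromosome 18 (43320984 to 43438286, minus). Gap43 lies on chromosome 16 (42248442 to 42340651, minus), Ncam1 on chromosome 9 (49502136 to 49798925, minus) and Elavl4 on chromosome 4 (110203722 to 110351909, minus). The genes are therefore not neighbours. Ncam1 overlaps an antisense gene, Gm11149, which held 0 or 1 read in each library.

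The name of the set was compared with the libraries first. Of the 10 genes, 9 were highest in cortex, the group in which 12 markers of mature neurons summed to 8920 to 9638 CPM. The 12 early neuronal regulators outside the set summed to 797 to 858 CPM in cortex and to 199 to 272 CPM in control tumours, and their levels were uneven. Eomes, of intermediate progenitors, reached 2.09 CPM at most, Nhlh1, of newborn neurons, reached 2.24 CPM, and Neurod1 stood at 9.74 to 18.5 CPM in cortex and at no more than 2.55 in any tumour. In these bulk libraries fewer cells of a type and less RNA per cell cannot be told apart. The 10 genes are therefore described here by name and not as a measure of immature neurons.

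Per length, the order of the 10 genes differed between cortex and tumour. RPKM values, which divide CPM by the length of the combined exons in kilobases, put Tubb3 first in cortex at 219 ± 19.3 (SD, n = 3), beside Stmn1 at 198 ± 22.1 and Gap43 at 158 ± 29.9, neighbours whose spreads touch or overlap. Stmn2 followed at 87.0 ± 3.47 RPKM, and Dcx was last at 3.48 ± 0.457. In control tumours Stmn1 led at 59.6 ± 4.55 RPKM, and Tubb3 (30.8 ± 19.6), Dpysl3 (26.8 ± 4.66) and Gap43 (26.3 ± 2.26) did not differ beyond their spread. Dpysl3, which ranked 9 in cortex at 16.6 ± 3.78 RPKM, ranked 3 in control and ETV5 tumours and 2 in NPY tumours. Stmn1 was the first in all 3 tumour groups. The last 3 places in each tumour group were taken by Crmp1, Elavl4 and Dcx, at 0.428 to 1.86 RPKM.

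**Figure D1:**
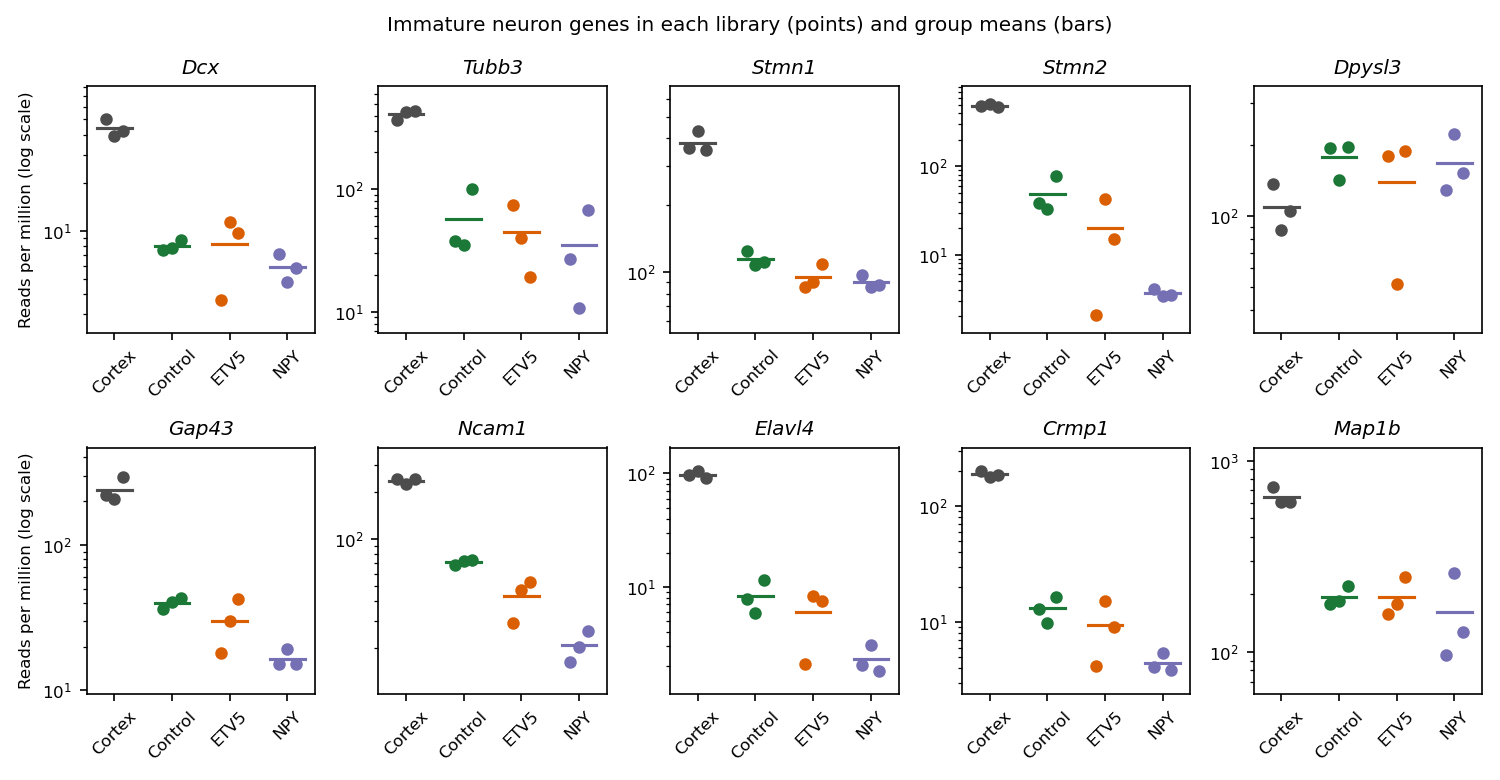
Level of each of the 10 genes in every library, in CPM on a log axis, with 1 point per library (n = 3 per group) and a bar at the group mean. For 9 genes the cortex points lie above every tumour point, and for Dpysl3 they do not. The Stmn2 points of NPY tumours lie at 3.41 to 4.13 CPM, and ETV5 replicate 1 lies lower still.

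The control tumours and the cortex show how the 10 genes stand in the fusion-driven tumour relative to non-tumour tissue. Of the 10 genes, 9 fell and Dpysl3 rose by limma, where limma called 72% of all 14621 tested genes, 36.2% as lower and 35.7% as higher. The median log2 fold change over the 10 genes was -2.67, beside -0.003 over all tested genes. The falls ranged from 3.74-fold for Ncam1 and Stmn1 to 16.4-fold for Crmp1. All 9 genes that fell had every control tumour library below every cortex library, as had 38.9% of all tested genes. Scaling to total reads moved the median log2 fold change of all genes from -0.003 to 0.16 and changed no direction among the 10 genes in this comparison.

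Among the microtubule proteins, Dcx, the doublecortin that stabilises microtubules of migrating neurons, stood at 50.5, 39.4 and 42.2 CPM in cortex and at 7.52, 7.82 and 8.78 CPM in control tumours. The 2 groups were far apart, and the control libraries lay close together. Dcx fell by 2.60 on the log2 scale (SE 0.16, adjusted p = 2.33e-06). Map1b, a microtubule-associated protein of growing axons, stood at 733, 610.5 and 605 CPM in cortex and at 179, 184 and 220 CPM in control tumours. It was the most read of the 10 genes in cortex, and in control tumours its levels overlapped those of Dpysl3. Map1b kept a larger share of its cortical level than Dcx, 29.9% against 18.3%. Map1b fell by 1.91 (SE 0.12, adjusted p = 2.54e-06). Tubb3, the beta-III tubulin of neurons, stood at 368, 424 and 435 CPM in cortex and at 37.6, 35.3 and 99.7 CPM in control tumours. Replicate 3 lay far above the other 2 control libraries and still well below cortex. Tubb3 fell by 3.17 with a larger error than the other genes (SE 0.34, adjusted p = 4.75e-05).

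The stathmins differed in how much of the cortical level was left. Stmn1, which is also abundant in dividing cells, stood at 360.0, 430.0 and 354 CPM in cortex and at 125, 108 and 111 CPM in control tumours. Stmn2, the membrane-bound stathmin of growth cones, stood at 479, 509 and 473 CPM in cortex and at 38.1, 32.6 and 77.1 CPM in control tumours. Control tumours thus held 30.1% of the cortical mean for Stmn1 and 10.1% for Stmn2, and replicate 3 was the highest of its group for Stmn2 but not for Stmn1. Stmn1 fell by 1.90 (SE 0.13, adjusted p = 3.80e-06) and Stmn2 fell by 3.58 (SE 0.27, adjusted p = 6.43e-06). Within a library, Stmn2 had 1.18 to 1.34 reads for each Stmn1 read in cortex and 0.302 to 0.692 in control tumours.

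Crmp1 and Dpysl3, the collapsin response mediator genes of the set, went opposite ways. Their relatives Dpysl2, Dpysl4 and Dpysl5, of a list described below, were called lower, as Crmp1 was. Crmp1, which relays semaphorin signals, stood at 201, 179 and 184 CPM in cortex and at 12.9, 9.80 and 16.6 CPM in control tumours. It had the largest fall of the set, by 4.03 (SE 0.17, adjusted p = 7.64e-07). Dpysl3, the related family member also called Crmp4, stood at 136, 87.0 and 105 CPM in cortex and at 194, 142 and 196 CPM in control tumours. The lowest control library was only just above the highest cortex library in CPM, and on the deposited scale the groups overlapped. Dpysl3 rose by 0.53 on the log2 scale (SE 0.17, adjusted p = 0.0238). This call was lost without cortex replicate 2 (adjusted p = 0.0930), cortex replicate 3 (0.0705), control replicate 1 (0.0678) or control replicate 3 (0.0544), and with all libraries in the fit (0.329). Its direction held in each alternative tried, at 0.40 to 0.70. Dpysl3 had 0.486 to 0.681 reads for each Crmp1 read in cortex and 11.8 to 15.02 in control tumours, a pair set side by side after the values were seen.

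The growth cone, adhesion and RNA-binding genes were all lower in the tumours. Gap43, a growth cone phosphoprotein, stood at 221, 208 and 292 CPM in cortex and at 36.3, 40.8 and 43.1 CPM in control tumours, and it fell by 2.74 (SE 0.14, adjusted p = 1.42e-06). Ncam1, the neural cell adhesion molecule, stood at 243, 225 and 243 CPM in cortex and at 68.3, 72.6 and 73.2 CPM in control tumours, and it fell by 1.90 (SE 0.10, adjusted p = 1.34e-06). Both genes varied little between the control libraries. Elavl4, the HuD protein that stabilises neuronal transcripts, stood at 96.9, 106 and 90.3 CPM in cortex and at 7.84, 5.83 and 11.5 CPM in control tumours, and it fell by 3.74 (SE 0.22, adjusted p = 2.16e-06).

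Markers of mature neurons moved with these genes. All 12 markers of mature neurons fell in control tumours, with a median log2 fold change of -3.71, as did all 10 markers of cortical excitatory neurons (-3.34) and all 11 of inhibitory neurons (-3.77). The 12 mature neuron markers summed to 607 to 1267 CPM in control tumours, and 0 of the 12 were at 0 reads in every library of a group. Snap25, of the synaptic vesicle fusion machinery, stood at 7.57% of its cortical mean and Slc17a7, the vesicular glutamate transporter, at 10.3%. Crmp1 (6.97%), Elavl4 (8.59%) and Stmn2 (10.1%) stood near those shares, and Ncam1 (30.1%), Stmn1 (30.1%), Map1b (29.9%) and Dpysl3 (162%) stood above them. Other cell types differed as well. All 8 markers of myelinating oligodendrocytes fell (median -2.67), as did 6 of 8 astrocyte markers. In contrast, 7 of 8 markers of microglia and macrophages (median 3.02), 7 of 8 of vessels and 5 of 6 of meningeal fibroblasts rose. Of 8 radial glia markers 6 rose and 1 fell, and of 8 oligodendrocyte precursor markers 3 rose and 3 fell. Of all tested genes limma called 35.7% higher and 36.2% lower, shares near those of the precursor markers. The part of these cell types in the differences of the 10 genes was not tested. The 10 proliferation markers rose in the same comparison, from 65.4 to 71.8 CPM summed in cortex to 808 to 1121 CPM in control tumours.

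**Figure D2:**
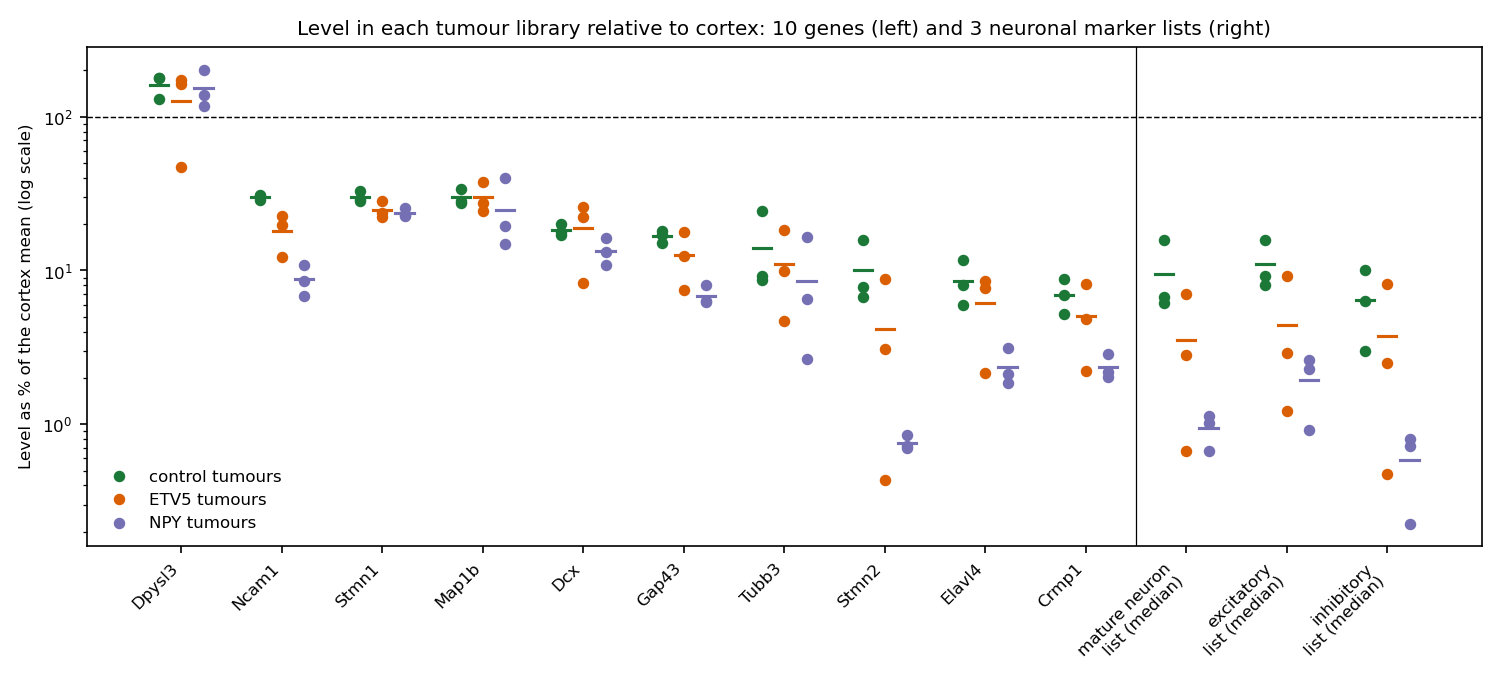
Level of the 10 genes in each tumour library as a percentage of the cortex mean (log axis, 1 point per library, bars at group means, dashed line at the cortex mean), beside the median percentage over 3 lists of neuron markers. Dpysl3 lies above the cortex mean in every tumour library but ETV5 replicate 2. Stmn2, Elavl4 and Crmp1 lie near the marker lists. In ETV5 replicate 1 and NPY replicates 1 and 2, Crmp1 and Elavl4 (2.11% to 3.12%) lie above all 3 list medians of the library (0.226% to 2.30%).

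Differences between ETV5 and control tumours, the comparison that concerns the added ETV5, did not pass the test for any of the 10 genes. Limma called 0 of the 10 genes, and 0% of the 14382 genes tested. At an unadjusted p under 0.05 limma had 1 of the 10 genes, Ncam1, and 944 of all genes (6.56%). EdgeR called 0 genes and DESeq2 75 (0.521%), 0 of them among the 10. All 10 log2 fold changes were negative, as were 7470 of the 14382 over all tested genes. The median of the 10 was -0.53 beside -0.02 over all tested genes. Negative signs were not particular to the 10 genes. They were held by all 8 markers each of astrocytes, microglia and macrophages, vessels and myelinating oligodendrocytes, and by all 6 of meningeal fibroblasts. Of 12 mature neuron markers 11 were negative (median -1.75). By contrast, 4 of 8 oligodendrocyte precursor markers, 3 of 8 radial glia markers and all 10 proliferation markers were positive. The signs of Dcx and Map1b were not stable: edgeR gave 0.055 and 0.027, and DESeq2 0.045 and 0.013.

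The ETV5 libraries were spread more widely than the controls for most of the genes. In ETV5 replicates 1, 2 and 3 Stmn2 had 2.10, 43.2 and 15.1 CPM, a 20.6-fold range, against 2.37-fold among controls. Replicate 1, with 16 reads, was the lowest of all 12 libraries for Stmn2, while replicate 2 lay within the control range. The log2 fold change of Stmn2 was -2.02, with a 95% interval from -4.50 to 0.46 (adjusted p = 0.732). Leaving out ETV5 replicate 1 gave -0.83, and leaving out replicate 2 gave -2.98. Ncam1 stood at 29.1, 46.9 and 53.2 CPM, below all 3 control libraries, and was the only one of the 10 genes whose libraries did not overlap, as 7.48% of all tested genes did in that direction. Its log2 fold change was -0.78 (SE 0.26, adjusted p = 0.732). Tubb3 stood at 74.7, 40.4 and 19.3 CPM, so that replicate 1, the lowest for Stmn2, was the highest of its group for Tubb3. In reads, Tubb3 exceeded Stmn2 35.6 times in that library, against 0.769 to 1.29 times in cortex, control tumours and the other ETV5 libraries and 6.50, 3.18 and 19.2 times in NPY replicates 1, 2 and 3, a ratio chosen after the values were seen.

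Dpysl3 stood apart in another ETV5 library. It was at 179, 51.4 and 188 CPM, so replicate 2 was the lowest of all 12 libraries for this gene while the other 2 lay in the control range. Its log2 fold change was -0.56, with an interval from -1.77 to 0.66, and 0.06 without ETV5 replicate 2. Dcx stood at 3.67, 11.4 and 9.74 CPM, and without replicate 1 its log2 fold change turned from -0.12 to 0.39 (interval with all libraries from -1.23 to 0.99). Gap43 (-0.50), Elavl4 (-0.65), Crmp1 (-0.62), Tubb3 (-0.41), Stmn1 (-0.29) and Map1b (-0.03) overlapped the controls, with adjusted p-values of 0.733 to 0.983. The 12 mature neuron markers summed to 154, 841 and 436 CPM in ETV5 replicates 1, 2 and 3, the same order as Stmn2 and Crmp1 (4.199, 15.2 and 9.03 CPM) and not that of Gap43 (18.0, 29.9 and 42.8 CPM) or Ncam1. Their part in these values was not tested. With the 2 ETV5 libraries coded DS alone, 0 of the 10 genes were called.

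**Figure D3:**
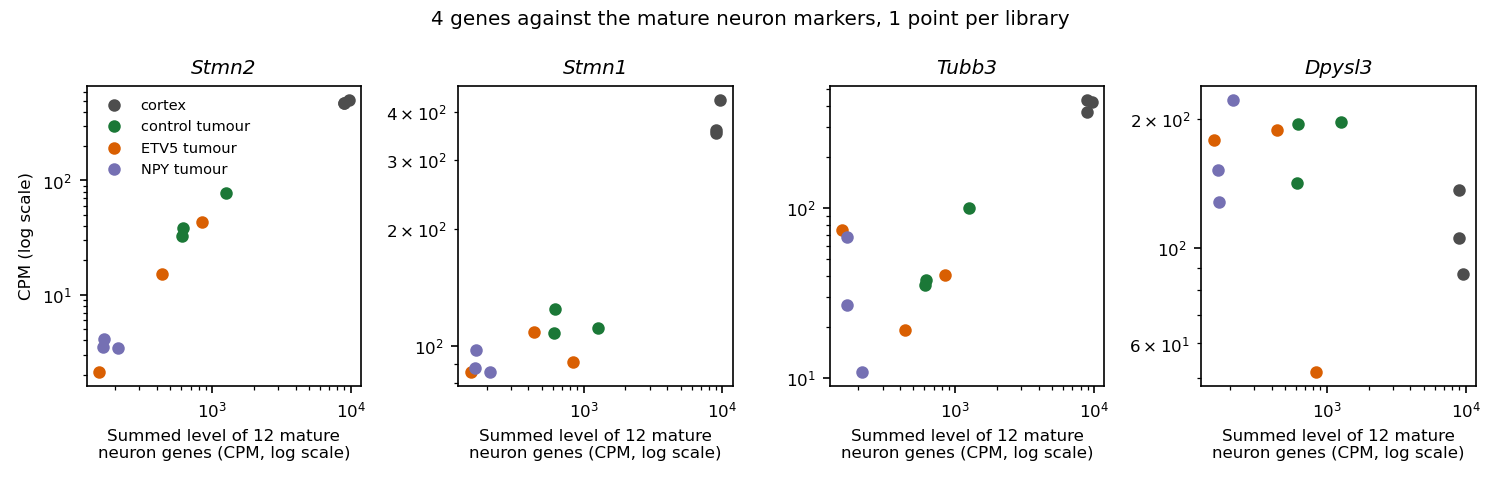
Level of Stmn2, Stmn1, Tubb3 and Dpysl3 in each library (vertical, CPM, log axis) against the summed level of 12 mature neuron markers (horizontal, CPM, log axis), 1 point per library. Stmn2 follows the marker sum through all groups, while among the tumours Tubb3 and Dpysl3 do not.

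Stmn2, Ncam1, Crmp1 and Gap43 fell in NPY tumours relative to control tumours, with log2 fold changes from -3.51 to -1.196. Limma thus called 4 of the 10 genes, all lower, where it called 4.31% of all 14425 tested genes as lower and 0.728% as higher. All 10 log2 fold changes were negative, as were 6748 of all tested genes. The median of the 10 was -1.01 beside 0.04 over all tested genes. On the deposited scale every NPY library lay below every control library for 6 of the 10, the 4 called genes with Elavl4 and Stmn1, as for 15.8% of all tested genes. In CPM the libraries of Dcx did not overlap either. The comparison uses the same 3 control libraries as that of ETV5 tumours.

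Stmn2 stood at 4.13, 3.41 and 3.53 CPM in NPY tumours, from 28 to 37 reads a library. These 3 libraries were alike and far below each control library. Stmn2 fell by 3.51 on the log2 scale (SE 0.34, adjusted p = 0.0122). Ncam1 stood at 16.2, 20.3 and 25.9 CPM and fell by 1.72 (SE 0.20, adjusted p = 0.0129). Gap43 stood at 15.2, 19.2 and 15.1 CPM and fell by 1.196 (SE 0.18, adjusted p = 0.0204). Crmp1 stood at 4.13, 5.36 and 3.82 CPM and fell by 1.44 (SE 0.29, adjusted p = 0.0417). All 4 genes were at clearly separate levels in the 2 groups, and Ncam1 kept the largest share of its cortical level among them, 8.76%. The calls rested on 3 libraries a group. Of the 10 genes, limma called 2 without control replicate 1, 0 without control replicate 2 and 1 without control replicate 3. It called 2 without NPY replicate 1, 5 without NPY replicate 2 and 3 without NPY replicate 3. Over all genes it called 138, 1, 78 and 125 in the first 4 of these settings, against 727 with every library, so calls were lost well beyond the 10 genes. The log2 fold changes of the 4 genes stayed between -3.74 and -1.13.

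The other 6 genes were not called. Elavl4 stood at 2.06, 3.04 and 1.81 CPM, and its log2 fold change of -1.71 (SE 0.37) just missed the threshold (adjusted p = 0.0509), which DESeq2 (0.0019) and 5 of the other alternatives passed. Stmn1 stood at 97.5, 85.6 and 87.6 CPM in NPY tumours, and its log2 fold change was -0.26 (SE 0.13, adjusted p = 0.276). Its groups were separate but close, in contrast to Stmn2. Tubb3 varied most, at 26.8, 10.8 and 67.8 CPM, and Map1b stood at 96.3, 259.9 and 127 CPM, with NPY replicate 2 the highest of all tumour libraries for Map1b and the lowest for Tubb3. Their log2 fold changes were -0.83 (interval from -2.49 to 0.84) and -0.31 (from -1.17 to 0.55). Dcx stood at 7.16, 4.75 and 5.82 CPM, and its log2 fold change was -0.37 (from -0.98 to 0.24). Dpysl3 stood at 128, 221 and 152 CPM, across the control range, with a log2 fold change of -0.02 (from -0.60 to 0.55).

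**Figure D4:**
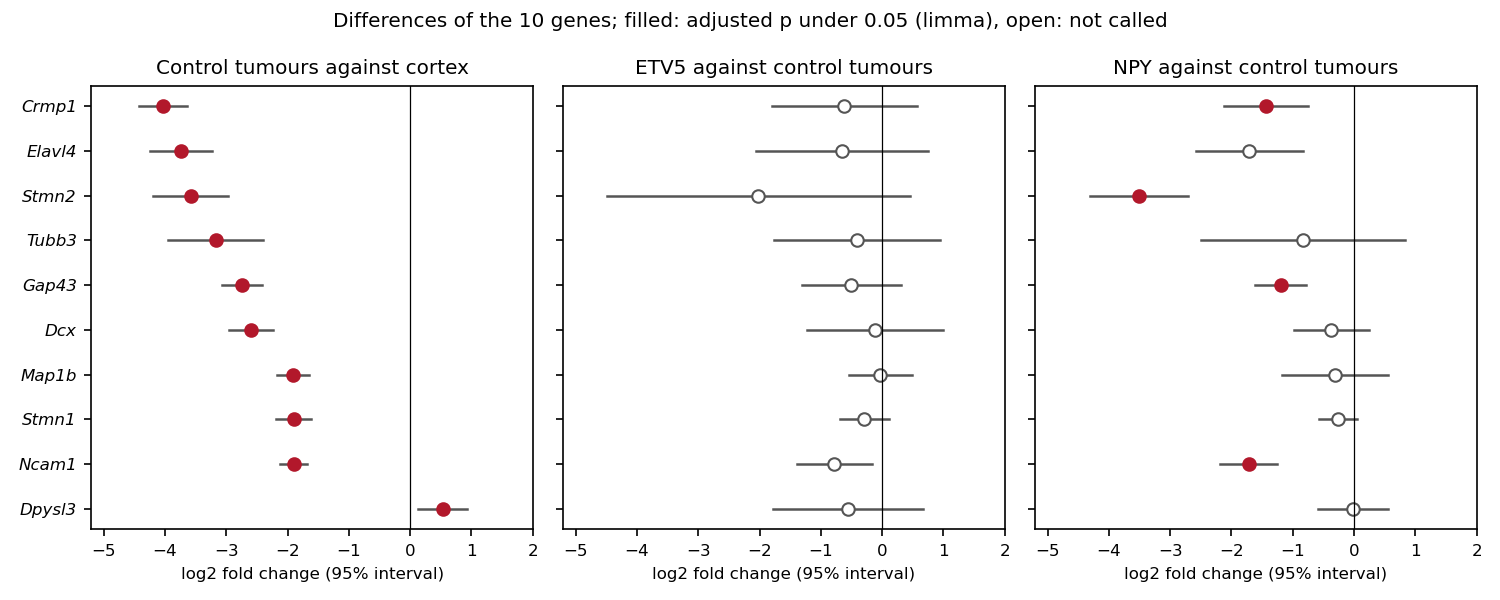
Log2 fold changes of the 10 genes with 95% intervals (limma, n = 3 libraries per group) in control tumours against cortex, ETV5 against control tumours and NPY against control tumours. Filled points passed an adjusted p of 0.05. The panels of ETV5 and NPY tumours share their control libraries.

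Markers of neurons, astrocytes and myelinating oligodendrocytes were lower in this comparison too, where limma called 4.31% of all tested genes as lower. Most markers of other cell types also had negative log2 fold changes. These were all 8 of microglia and macrophages (median -0.28), all 8 of vessels (-0.80) and all 6 of meningeal fibroblasts (-0.71). They were also 6 of 8 oligodendrocyte precursor markers and 5 of 8 radial glia markers. Among these lists limma called 1 radial glia marker lower and 0 of the others. Of 12 mature neuron markers 9 fell, with a median log2 fold change of -3.04, and their sum was 165 to 212 CPM in NPY tumours against 607 to 1267 CPM in control tumours. Of 10 excitatory neuron markers 6 fell, and Neurod6 was at 0 reads in every NPY library. Of the 6 inhibitory neuron markers tested 4 fell, and Dlx1 and Dlx5 were at 0 reads in every NPY library. Of 8 astrocyte markers 3 fell, and their sum was 563 to 1900 CPM against 4049 to 4649 CPM. Of 8 markers of myelinating oligodendrocytes 1 fell and all 8 log2 fold changes were negative (median -1.73), and their sum was 618 to 1704 CPM against 1938 to 4001 CPM. Snap25, the synaptic gene, stood at 0.263% of its cortical mean in NPY tumours, beside 0.757% for Stmn2 and 2.36% for both Crmp1 and Elavl4. Cdk1 and Pcna were the 2 called of 10 proliferation markers, both higher, and the sum of the 10 was 1407 to 1855 CPM in NPY tumours against 808 to 1121 CPM in control tumours. The part of these cell types in the lower levels of the 10 genes was not tested.

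Against cortex, ETV5 and NPY tumours each had 9 of the 10 genes lower by limma, where limma called 32% and 35.4% of all tested genes as lower. The remaining gene was Dpysl3, with a log2 fold change of -0.03 in ETV5 tumours (interval from -1.26 to 1.21) and 0.45 in NPY tumours (from -0.14 to 1.04). The ETV5 value of Dpysl3 was 0.59 and passed (adjusted p = 0.0400) without ETV5 replicate 2. Stmn2 was 141-fold lower than cortex in NPY tumours (log2 fold change -7.14, SE 0.13, adjusted p = 3.11e-07) and 48.5-fold lower in ETV5 tumours (-5.60, SE 0.996, adjusted p = 0.00285). Stmn1 was 4.65-fold and 4.57-fold lower, respectively. These comparisons share their cortex libraries with that of control tumours.

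Between ETV5 and NPY tumours limma called 0 of the 10 genes and 0% of 14023 tested genes. At an unadjusted p under 0.05 there were 831 genes (5.93%), Ncam1 alone among the 10, and edgeR called 0 genes and DESeq2 56 (0.399%), 0 of them among the 10. Of the 10 genes, 9 had a positive log2 fold change, as had 6769 of all tested genes. The median of the 10 was 0.60 beside -0.01 over all tested genes. Ncam1 was the one gene with every ETV5 library above every NPY library, as 5.94% of all tested genes were, at a log2 fold change of 0.97 (interval from 0.27 to 1.68, adjusted p = 0.793). The interval of Stmn2 ran from -0.90 to 3.95.

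Among the 9 tumour libraries the 10 genes did not vary as 1 block. Pearson's r of log2(CPM + 1) was 0.979 between Elavl4 and Crmp1, 0.973 between Stmn2 and Crmp1 and 0.936 between Gap43 and Ncam1. Tubb3 had r between -0.31 and 0.32 with each other gene, and Dpysl3 between -0.52 and 0.31. With the summed mature neuron markers, r was 0.988 for Stmn2, 0.987 for Crmp1 and 0.970 for Elavl4, 0.887 for Gap43 and 0.874 for Ncam1. It was 0.767 for Dcx, 0.655 for Stmn1, 0.492 for Map1b, 0.224 for Tubb3 and -0.237 for Dpysl3. With summed astrocyte markers r was 0.915 for Ncam1, 0.877 for Stmn2, 0.827 for Crmp1, 0.819 for Gap43 and 0.815 for Elavl4. Among the cell type lists, Map1b had its highest r with summed oligodendrocyte precursor markers, at 0.793. With summed proliferation markers r was negative for all 10, from -0.8625 for Ncam1 to -0.144 for Dpysl3. It was -0.760 for Gap43, -0.752 for Stmn2 and -0.729 for Stmn1. Some values rested on few libraries. Without the 2 farthest from the median of the measure on the x axis, r of Tubb3 with proliferation markers went from -0.634 to 0.128. That of Tubb3 with Stmn1 went from 0.068 to -0.616. Map1b went from 0.51 to -0.019 with Crmp1 and from 0.64 to 0.15 with Gap43, and Dpysl3 with Map1b from 0.31 to 0.683. Stmn2 with mature neuron markers stayed high, at 0.988 and 0.982. These values describe 9 libraries of 3 tumour groups that differ in group, and in library code, so they carry no test. The 5 genes with the highest Pearson's r, both with mature neuron and with astrocyte markers, were Stmn2, Crmp1, Elavl4, Gap43 and Ncam1. Other lists ranked the genes differently. With inhibitory neuron markers Dcx (0.784) stood above Gap43 (0.758). With myelinating oligodendrocyte markers Stmn1 (0.797) came second to Ncam1 (0.872). The NPY and control libraries compared above are among the 9, so these rankings are no separate evidence on the genes that fell there. Spearman's rho ordered the genes otherwise: with mature neuron markers Dcx had 0.80, Gap43 0.78 and Ncam1 0.73.

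Related genes of the same processes were counted from lists of microtubule and neurite genes, adhesion genes and early neuronal regulators. In control tumours against cortex, 15 of 16 microtubule and neurite genes fell and 0 rose, with a median log2 fold change of -2.30. Of all tested genes limma called 36.2% lower and 35.7% higher. Stmn4 and Stmn3, neuronal stathmins, stood at 9.03% and 9.74% of their cortical means, near Stmn2, and Kif5c, a kinesin motor of axons, at 10.5%. The gene of this list that was not called was Marcksl1, a growth cone phosphoprotein of the MARCKS family (-0.28, adjusted p = 0.0676). In NPY against control tumours 7 of the 16 fell, where limma called 4.31% of all tested genes as lower. Among the 7 were Kif5c (-3.28, adjusted p = 0.0110), Stmn3 (-2.48, adjusted p = 0.0182) and Dclk1, the doublecortin-like kinase (-1.17, adjusted p = 0.0265). Stmn4 had -2.37 (adjusted p = 0.0509). In ETV5 against control tumours 0 of the 16 were called by limma, with a median of -0.62.

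Of 8 adhesion genes in control tumours against cortex, 3 fell (L1cam, Nrcam and Nfasc) and 2 rose (Cntn2 and St8sia2), shares near or below the 36.2% lower and 35.7% higher among all tested genes. L1cam, an adhesion molecule of axons, fell by 3.84 (adjusted p = 4.95e-06). Cntn2, the axonal glycoprotein TAG-1, rose from 107 ± 13.4 to 644 ± 86.2 CPM (adjusted p = 1.66e-06), and St8sia2, which adds polysialic acid to Ncam1, rose from 4.41 ± 1.496 to 18.7 ± 14.0 CPM (adjusted p = 0.0271) with libraries that overlapped. In NPY against control tumours 2 of 8 fell, Chl1 and Nrcam, where limma called 4.31% of all tested genes as lower. Cntn2 stood at 559.8 ± 189 CPM there (-0.17, adjusted p = 0.758).

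Of the 12 early neuronal regulators 10 were tested in control tumours against cortex, and 7 fell and 2 rose. Of all tested genes limma called 36.2% lower and 35.7% higher, so the share of regulators that rose was below that of all genes. Sox4, a factor of the SOXC group active in newborn neurons, rose from 20.5 ± 3.34 to 60.8 ± 3.81 CPM (adjusted p = 7.90e-05), and Igfbpl1, a secreted protein of newborn neurons, from 4.32 ± 1.41 to 25.3 ± 10.3 CPM (adjusted p = 0.000282). Sox11, the other SOXC gene of the list, was not called higher. Elavl2, an RNA-binding relative of Elavl4, fell by 3.85 and Myt1l, a repressor of non-neuronal genes, by 3.80. Sox4, Igfbpl1 and Dpysl3 were thus called higher, and Elavl4, Elavl2 and Elavl3 lower, in the same libraries, though the Dpysl3 call was lost in several alternatives given above. In NPY against control tumours 3 of 9 tested regulators fell, Myt1l, Celsr3 and Elavl3, where limma called 4.31% of all tested genes as lower. Sox4 had a log2 fold change of 0.23 there (adjusted p = 0.375). Igfbpl1, not among those called, stood at 3.40, 5.97 and 23.1 CPM in NPY tumours and at 37.1, 20.6 and 18.2 CPM in control tumours.

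**Figure D5:**
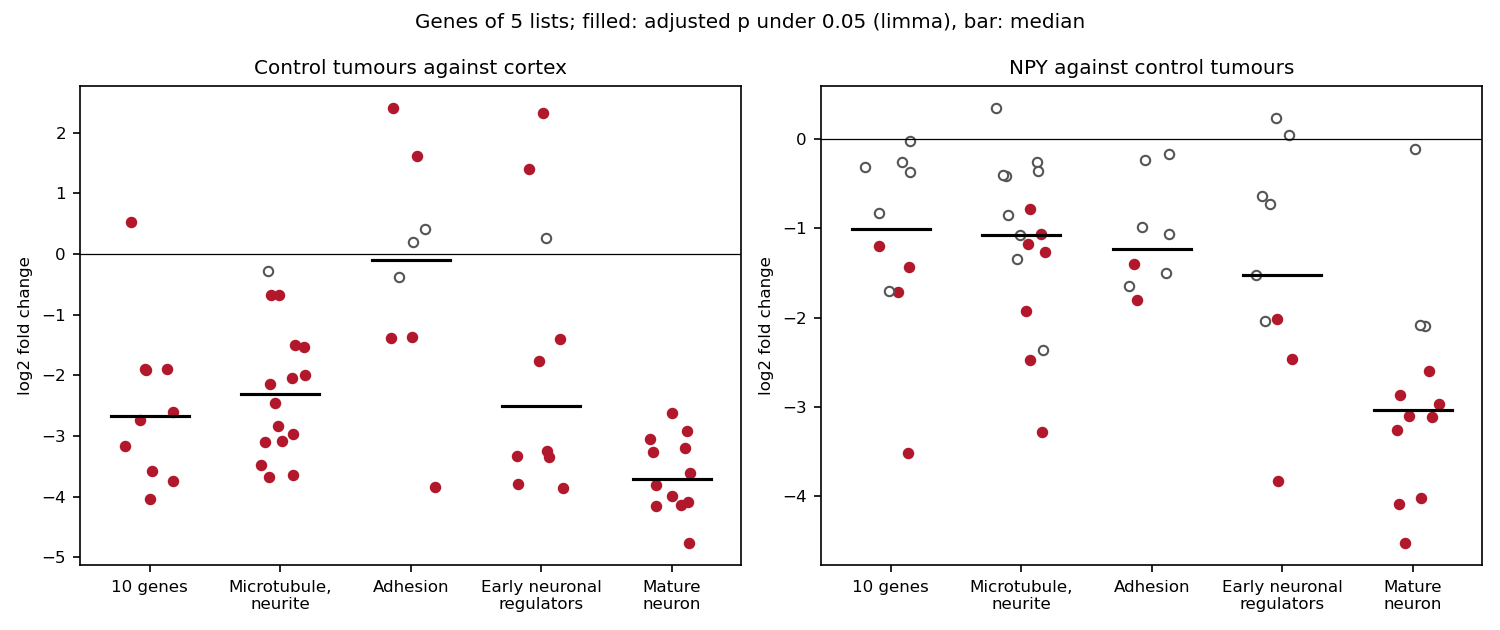
Log2 fold changes of the 10 genes and of 4 gene lists in control tumours against cortex and in NPY against control tumours, 1 point per tested gene, filled where the adjusted p passed 0.05 (limma), bars at the list medians. The medians of the 10 genes are -2.67 and -1.01, and those of the mature neuron markers -3.71 and -3.04.

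The genes most like Dcx and Stmn1 over the 9 tumour libraries were looked up among 11977 genes with a mean of at least 5 CPM. For Dcx they were Setbp1 (r = 0.955), Faxc (0.946), Ank2 (0.938), Ckb (0.917) and Ankrd46 (0.915). Ckb, the brain creatine kinase, stood at 1235 ± 193 CPM in cortex and at 2935 ± 434 CPM in control tumours, the opposite order to Dcx. For Stmn1 they were Itm2b (0.961), Cp (0.946), Sirt2 (0.929), Abcd4 (0.915) and Cltb (0.893). Cp, the copper carrier ceruloplasmin, stood at 13.2 ± 1.68 CPM in cortex and at 306 ± 86.3 CPM in control tumours. The other 4 genes most like Dcx were higher in cortex than in control tumours, as Dcx was, such as Faxc at 110 ± 13.6 against 22.4 ± 3.21 CPM. Of those most like Stmn1, Sirt2 and Cltb were higher in cortex, as Stmn1 was, and Itm2b, Cp and Abcd4 had the higher mean in control tumours. With the highest r among so many genes taken, the values are a ranking only.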

How the data were processed

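The deposited values were a normalized signal: the authors had divided the read counts of each library by 1 size factor. Per the submitters' processing notes the tools were FastQC 0.11.7, MultiQC 1.6, STAR 2.5.0a and DESeq2 1.30.1 with mm10. The program that counted reads, with its strand setting and gene models, is not given in the sources used here. Per the labels' protocols, stranded polyA libraries were made from 300 ng total RNA and sequenced as pairs. Whole reads were recovered for 100% of values within 0.01 read, and the control libraries held the same reads in both tables. Genes passed edgeR's filter (10 reads in 3 libraries, 15 in total). The test was limma 3.58.1 (R 4.3.3, trend, robust) on log2(deposited value + 1), the 2 groups compared alone, two-sided, Benjamini-Hochberg over all tested genes, called under 0.05. Fold changes are on that scale, which understates those of low genes. For NPY against cortex or ETV5, in separate tables, reads were re-scaled by median of ratios. EdgeR 4.0.16 and DESeq2 1.42.0 served as alternatives, and the scripts were tested on simulated data. Groups came from the titles. CPM and RPKM use recovered reads, and RPKM the combined exons of all GENCODE M21 transcripts.

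The 10 genes and all lists were chosen with earlier results of these data known. Named besides the 10 were up to 3 called genes per direction and related list by size of change with a mean of at least 5 CPM, the 2 most abundant of each marker list, and the 5 genes most like Dcx and Stmn1, without predicted symbols. Of the genes so picked from the marker lists, single levels are given for Snap25 and Slc17a7 only. Other genes were named after their values were seen: Eomes, Nhlh1, Neurod6, Dlx1, Dlx5, Marcksl1, Dclk1, Dpysl2, Dpysl4, Dpysl5, Chl1, Celsr3, Elavl3, Sox11, Cdk1 and Pcna. Correlations use log2(CPM + 1). No pairing by replicate number was seen, with correlations of same-numbered libraries between -0.41 and 0.37, and none was used in the main test.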

Additional observations from a re-analysis of the deposited data

How the results depend on the processing

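The alternatives were edgeR, DESeq2, limma-voom, TMM and total-read scaling, pseudocounts of 0.5 and 5, no filter, all libraries in 1 fit, leaving out each library, and a replicate block. In NPY against control tumours the 10 genes called numbered 4, and between 0 and 5 with 1 library left out. With the replicate block, 2 were called there, Stmn2 and Ncam1, and 264 genes in all. No pairing by number was seen: in 6 of 18 pairs of a library and a comparison the library matched best with its own number. With 3 libraries a group this check is weak and cannot exclude a pairing. The block changed no call among the 10 genes elsewhere. Over all genes 727 were called there, against 1833 by DESeq2, 1164 with all libraries in the fit and 1 to 571 with 1 library left out; Crmp1 was lost with limma-voom (adjusted p = 0.0512). ETV5 against NPY tumours had 0 genes called, against 56 by DESeq2, 5 with all libraries in the fit and 1 without a filter.

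Dpysl3 in ETV5 tumours against cortex turned from -0.03 to 0.59 and passed without ETV5 replicate 2 (adjusted p = 0.0400). The other signs that turned belonged to values not called in either setting. In ETV5 against control tumours Dcx had 0.055 by edgeR and 0.045 by DESeq2, and Map1b 0.027 by edgeR, 0.013 by DESeq2, 0.0032 by limma-voom and 0.0039 with TMM. In ETV5 tumours against cortex Dpysl3 had 0.18 by edgeR, 0.17 by DESeq2 and 0.16 with total reads. With 1 library left out the log2 fold changes ran, in ETV5 against control tumours, from -0.41 to 0.39 for Dcx, -0.86 to 0.070 for Tubb3, -0.91 to 0.061 for Dpysl3 and -0.24 to 0.12 for Map1b. They ran from -0.25 to 0.15 for Dpysl3 in NPY against control tumours and from -0.38 to 0.59 in ETV5 tumours against cortex. In ETV5 against NPY tumours they ran from -0.18 to 1.11 for Tubb3, -0.82 to 0.14 for Dpysl3 and -0.093 to 0.066 for Stmn1. The causes were not tested.

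With 3 libraries a group and 5962376 to 11291057 reads, small differences could not be detected. Levels under about 5 CPM, such as Stmn2 and Elavl4 in NPY tumours, rest on few reads.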
